A study of Mus musculus with 2 samples.

Results

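Cell cycle and replication genes were followed cell by cell in phagocytes (microglia and macrophages) from crushed and intact mouse optic nerves. The set holds 35 genes, chosen by function, of 31053 gene rows in the count table, and all 35 were found. It comprises 15 mitotic genes, 13 genes of DNA replication and its histones, 3 genes linked to growth and proliferation (Stmn1, Hmgb2 and Tubb5), and 4 genes that act before S phase or at checkpoints (Ccnd1, Ccnd2, Ccne1 and Cdkn1a). The mice were wildtype, of strain 129S1/SvlmJ and of both sexes. Injured mice received the nerve crush when 8 weeks old and were sampled when 10 weeks old, 2 weeks after it. The uninjured group, also 10 weeks old, had no crush. These ages are from the labels' design text, whereas the source name in the labels gives an age below 10 weeks. Nerves were dissected, digested and triturated, and cells were captured with the 10x Genomics v2 droplet kit, which counts each captured RNA molecule as 1 unique molecular identifier (UMI).

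The table holds 778 cells that the submitters kept as macrophages or microglia. Each condition is 1 library, so no test between them was possible, and every interval given here is an exact 95% interval that covers counting error only. The injured library had 727 cells and 3697992 UMIs, with 500 to 53972 UMIs per cell and a median of 1123. The uninjured library had 51 cells and 87499 UMIs, with 458 to 11100 UMIs per cell and a median of 888. Cells of at least 5000 UMIs are called deep: 144 injured and 4 uninjured cells. The libraries shared 0 cell barcodes. One uninjured cell, the deepest of that library and 1 of its 4 deep cells, goes against the phagocyte label: 92.0% of its 11100 UMIs were erythroid RNA (4 haemoglobin genes and Alas2), and it had 0 UMIs of the macrophage and microglia marker C1qa. Erythroid RNA took 116767 CPM of that library, where CPM is the UMI count scaled to a total of 1000000 UMIs, so results that rest on the uninjured cells are also given without that cell.

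A dividing cell copies its DNA in S phase and separates the copies in mitosis. Genes for replication (the Mcm helicase, the Pcna sliding clamp and the enzymes that make nucleotides) are switched on toward S phase largely by E2F factors, and mitotic genes peak later, under complexes that read a promoter element called CHR together with CCAAT boxes, which NF-Y binds. Resident microglia and infiltrating macrophages are both known to divide after injury to the central nervous system.

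Promoters of most members with a sequence carry some of these letters, and 5 are printed here because their genes held some of the clearest counts or the most matches. The sequences are from RefSeq, build GRCm38.p6, and are the 200 bases just before the annotated start, read 5′ to 3′ on the strand of the gene. They lie at chr11:99024190-99024389 (Top2a, minus strand), chr10:69352913-69353112 (Cdk1, minus), chr2:164769729-164769928 (Ube2c, plus), chr1:128359706-128359905 (Mcm6, minus) and chr8:75109309-75109508 (Mcm5, plus). Capitals mark matches to CHR, to CCAAT or to an E2F site on either strand, and neighbouring matches may overlap. The letters searched for CHR were TTTGAA and, as the other common form of this element, TTCGAA. For an E2F site the main form searched was TTCCCGC, and a match to a second form, TTGGCGC, was also counted. Forms that differ from these inside the site were searched as TTCGCGC and, in the same way on both strands, as TTGCCGC.
Top2a: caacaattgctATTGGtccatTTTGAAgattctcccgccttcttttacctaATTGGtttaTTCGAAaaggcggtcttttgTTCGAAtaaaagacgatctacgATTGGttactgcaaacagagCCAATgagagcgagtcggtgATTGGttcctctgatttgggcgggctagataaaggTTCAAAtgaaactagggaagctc
Cdk1: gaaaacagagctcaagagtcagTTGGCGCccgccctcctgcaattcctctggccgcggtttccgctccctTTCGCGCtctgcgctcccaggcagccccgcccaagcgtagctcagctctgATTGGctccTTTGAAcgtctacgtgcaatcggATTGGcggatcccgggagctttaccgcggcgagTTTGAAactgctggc
Ube2c: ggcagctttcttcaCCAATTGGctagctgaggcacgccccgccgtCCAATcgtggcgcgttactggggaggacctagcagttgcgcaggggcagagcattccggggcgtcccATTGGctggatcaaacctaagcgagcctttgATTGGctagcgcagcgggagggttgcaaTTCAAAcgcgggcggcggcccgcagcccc
Mcm6: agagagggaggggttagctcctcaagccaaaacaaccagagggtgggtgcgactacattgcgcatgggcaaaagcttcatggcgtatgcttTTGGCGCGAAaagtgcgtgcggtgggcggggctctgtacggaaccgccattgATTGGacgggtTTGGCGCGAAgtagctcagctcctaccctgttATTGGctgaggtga
Mcm5: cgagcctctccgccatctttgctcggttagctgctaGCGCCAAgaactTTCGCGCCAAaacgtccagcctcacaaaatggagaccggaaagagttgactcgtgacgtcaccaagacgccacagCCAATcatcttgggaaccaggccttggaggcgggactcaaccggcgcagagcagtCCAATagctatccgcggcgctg
Top2a holds 4 CHR and 5 CCAAT matches, Cdk1 2 CHR, 2 CCAAT and 2 E2F matches, and Ube2c 1 CHR and 5 CCAAT matches. Mcm6 holds 2 CCAAT and 4 overlapping E2F matches, and Mcm5 2 CCAAT and 3 E2F matches. In the 250 bases before the start, 12 of 13 mitotic genes with a sequence held a CCAAT match (92.3%), against 37.5% of 27025 genes. So did 8 of 10 replication genes (80%) and 2 of 2 growth-linked genes, so this match was not particular to mitotic genes. A CHR match stood in 6 of the 13 mitotic genes (46.2%) and 2 of the 10 replication genes (20%), against 19.6% of all genes. E2F matches stood in 5 of 10 replication genes (50%) and 3 of 13 mitotic genes, against 9.01% of all genes. None of the 3 windows of Ccne1 and Cdkn1a held any of these letters, and in the 200 bases before the start Birc5, Tyms and Tk1 held none. A match is a description of the letters, not evidence of a bound site. Of the members, 27 had a sequence; Ccna2, Aurkb, Mcm4, Hist1h2ap, Hist1h2ae, Stmn1, Ccnd1 and Ccnd2 were not matched.

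Mitotic genes were concentrated in 6 injured cells. These cells held 9 to 15 of the 15 mitotic genes each, whereas none of the other 772 cells held more than 3. Among the other deep injured cells, 63 had 0 mitotic genes, 48 had 1, 22 had 2 and 5 had 3. Of the 583 injured cells under 5000 UMIs, 538 had 0, 41 had 1, 3 had 2 and 1 had 3. No uninjured cell had more than 1. A cell was therefore counted as rich in mitotic genes at 4 or more of the 15, a limit that falls in the empty interval between 3 and 9.

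**Figure D1:**
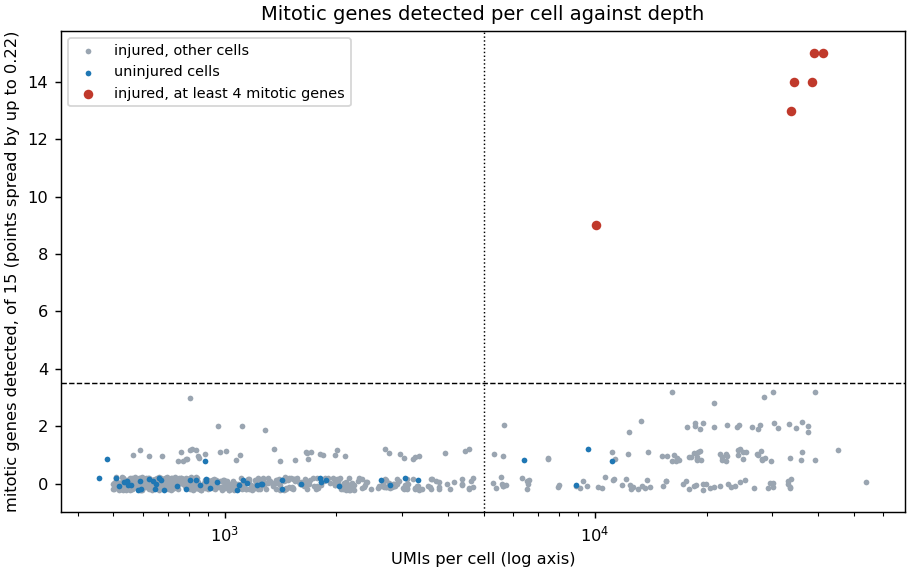
Each point is 1 of the 778 cells, with its UMIs on a log x axis and the number of mitotic genes detected, of 15, on the y axis; the dashed line is the limit of 4 genes and the dotted line 5000 UMIs. The 6 red cells, at 9 to 15 genes, stand apart from all others, which have 0 to 3.

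The 6 cells made up 0.825% of injured cells (0.303 to 1.79%, Clopper-Pearson) and 4.17% of the 144 deep injured cells (1.54 to 8.85%). None was seen among 51 uninjured cells, which allows a share of up to 5.88% by a limit of 3 counts and 6.98% by the exact interval, so the shares of the 2 libraries could not be told apart at this depth. Of the 6, 5 lay among the 27 injured cells of at least 30000 UMIs, of which they were 18.5% (6.30 to 38.1%). When each deep cell was thinned to 5000 UMIs, the same 6 of 144 still had 4 or more mitotic genes, and no other cell had 3. After thinning all cells to 500 UMIs no injured cell had more than 2. Each thinning was a single random draw, so how often such a cell would reach 4 at 500 UMIs was not measured.

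Cells A to F, in order of their mitotic UMIs, had 39119, 41325, 38425, 33904, 10025 and 34524 UMIs. Summed over the 15 mitotic genes, they held 394, 224, 98, 81, 76 and 55 UMIs. Per 10000 UMIs this was 101 in A, 54.2 in B, 25.5 in C, 23.9 in D, 75.8 in E and 15.9 in F. The other 138 deep injured cells had a median of 0.359 and a highest value of 5.76, so that every one lay below all 6. The same genes chose the 6 cells, so this gap follows in part from that choice. Cells under 5000 UMIs were not part of this comparison, and few UMIs give a high rate there. An injured cell of 806 UMIs had 3 mitotic UMIs, a higher rate than in C, D or F. Cells A and B together held 53.6% of the mitotic UMIs of the injured library.

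Among the mitotic genes, the most abundant was Mki67, which encodes the proliferation antigen Ki-67 that coats mitotic chromosomes. It had 59, 78, 16, 7, 38 and 8 UMIs in cells A to F, and 58 UMIs in 25 other injured cells, 14 of them in 1 cell of 24324 UMIs whose only mitotic gene it was. Mki67 alone therefore marked cells that carried no other mitotic gene of the set. Top2a, the topoisomerase that untangles sister chromatids, had 91, 52, 6, 2, 23 and 12 UMIs in A to F, and 7 UMIs in the 721 other injured cells. Birc5, the survivin subunit of the chromosomal passenger complex, had 31, 19, 16, 20, 1 and 9 UMIs, and 1 UMI elsewhere in the injured library.

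The mitotic cyclins and their kinase differed in how closely they kept to the 6 cells. Ccnb2 (cyclin B2) had 12, 6, 12, 20, 0 and 2 UMIs in A to F and 1 in another injured cell. Ccnb1 (cyclin B1) had 26 of 27 injured UMIs in the 6 cells, and Ccna2 (cyclin A2), which acts in S phase and G2, had 34 of 35. Cdk1, the kinase these cyclins activate, was less restricted: 28, 9, 1, 0, 1 and 4 UMIs in A to F, and 24 UMIs spread over 23 other injured cells.

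Genes of the kinetochore, the spindle and anaphase followed. Cenpf had 40, 14, 6, 1, 5 and 7 UMIs in A to F and Cenpe, a kinetochore motor, 26, 5, 9, 2, 5 and 1; outside the 6 cells they had 5 and 7 injured UMIs. Ube2c, the ubiquitin-conjugating enzyme of the anaphase-promoting complex, had 29, 6, 2, 2, 0 and 2 UMIs, and its activator Cdc20 had 6, 2, 3, 4, 0 and 2. Plk1 and Aurka, 2 mitotic kinases, were scarce, with 13 of 14 and 12 of 15 injured UMIs in the 6 cells. Aurkb, the kinase of the passenger complex, was less restricted, with 19 of 33 injured UMIs in the 6 cells, 14 of them in A. The other 14 were in 12 other injured cells. Cenpa, the histone H3 variant of centromeres, was the most scattered mitotic gene: 18, 8, 17, 16, 0 and 3 UMIs in A to F, and 99 UMIs in 68 other injured cells.

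**Figure D2:**
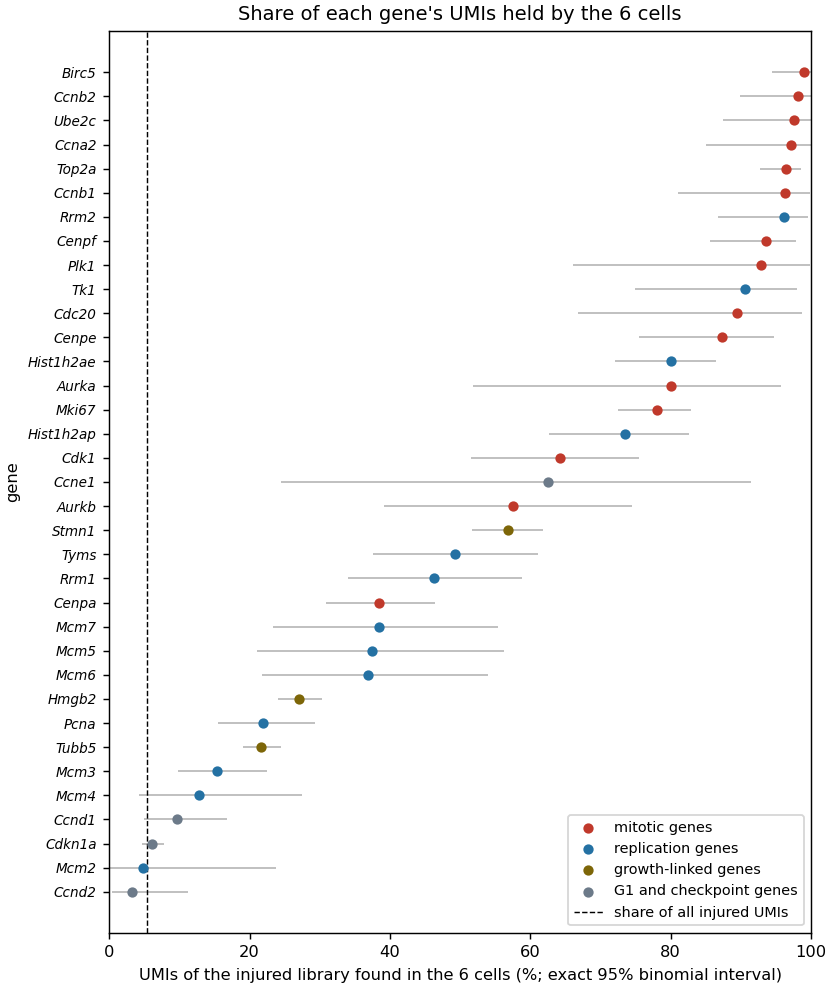
For each of the 35 genes, the point is the percent of its injured UMIs that lay in the 6 cells and the grey line its exact binomial interval; the dashed line is the 5.34% of all injured UMIs that these cells hold. Birc5 (99.0%) and most mitotic genes stand at the right, whereas Cdkn1a (6.12%) and Ccnd2 (3.23%) lie near the dashed line.

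The 6 cells held 5.34% of all injured UMIs but 80.5% of the mitotic UMIs, 46.1% of the replication UMIs, 30.1% of the growth-linked UMIs and 6.73% of the G1 and checkpoint UMIs. The mitotic share is a description, since these genes chose the cells. Of genes with at least 20 injured UMIs, 0.777% (66 of 8497) had 50% or more of them in the 6 cells. Those 66 comprised 16 members, 42 genes of the other cell cycle lists and 8 genes in no list, among them Cep55, Pttg1, Hist1h3e, Ncaph, Hist1h4d, Dnph1 and Diaph3. These were named after their values were seen; Pttg1 (securin) and Ncaph (a condensin subunit) act on chromosomes in mitosis, and Cep55 acts in the final cut between daughter cells.

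Replication genes divided the 6 cells. Summed over the 13 genes, cells A to F had 90, 137, 9, 6, 26 and 145 UMIs. Per 10000 UMIs this was 23.0 in A, 33.2 in B, 2.34 in C, 1.77 in D, 25.9 in E and 42.0 in F. The other deep injured cells had a median of 1.07 and a highest value of 5.32, so C and D lay within their range and A, B, E and F above it. Cells under 5000 UMIs are not part of that range. Among them, injured cells of 4614 and 2773 UMIs had 14 and 9 replication UMIs, a higher rate than in A or E. Of the 90 UMIs in A, 32 were of Hist1h2ae and 31 of Hist1h2ap, and no sum per cell was made without these histone genes. F had the most replication UMIs and the fewest mitotic UMIs, with 0.379 mitotic UMIs for each replication UMI, against 10.9 in C and 13.5 in D.

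**Figure D3:**
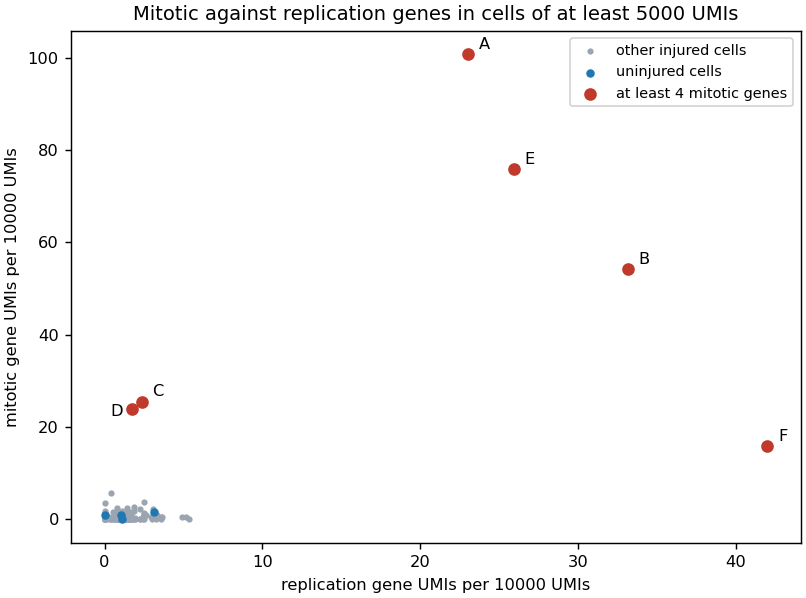
Each point is a cell of at least 5000 UMIs, with replication gene UMIs per 10000 on the x axis and mitotic gene UMIs per 10000 on the y axis. Cells C and D stand high on the mitotic axis only, F lies farthest along the replication axis at 42.0, and A, B and E are high on both; the other cells lie near the origin, at no more than 5.32 and 5.76 among injured cells. Most replication UMIs of A were of the histone genes Hist1h2ae and Hist1h2ap.

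Within the replication group, Rrm2 and Tk1, 2 enzymes of nucleotide supply, were the most restricted. Rrm2, the subunit of ribonucleotide reductase made in S phase, had 8, 28, 0, 0, 2 and 12 UMIs in A to F and 2 UMIs in other injured cells. Tk1 (thymidine kinase 1) had 5, 11, 0, 0, 2 and 11 UMIs, and 3 elsewhere. Tyms (thymidylate synthase) had 6, 12, 0, 1, 1 and 17, and Rrm1, the other reductase subunit, 2, 18, 1, 1, 5 and 4; they had 38 and 36 UMIs in other injured cells. Cells C and D thus lacked Rrm2 and Tk1.

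Clamp and helicase genes were spread over many cells. Pcna had 1, 8, 2, 0, 0 and 22 UMIs in A to F and 118 in 84 other injured cells. Mcm3, the most abundant helicase subunit gene by UMIs, had 3, 7, 3, 0, 2 and 6, and 116 in 86 other injured cells. Mcm5, Mcm6 and Mcm7 had 12, 14 and 15 UMIs in the 6 cells, with 10.9 to 12.0 times the level of the other deep injured cells. Mcm4 (5 of 39 injured UMIs in the 6 cells) and Mcm2 (1 of 21) were too scarce to place. The histone genes Hist1h2ae (32, 30, 0, 1, 2 and 39 UMIs in A to F) and Hist1h2ap (31, 13, 2, 1, 0 and 14) were again low in C and D. Replication histone genes are near-identical copies whose RNA mostly lacks a poly(A) tail, so the assignment of their reads to single genes and their levels are uncertain.

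**Figure D4:**
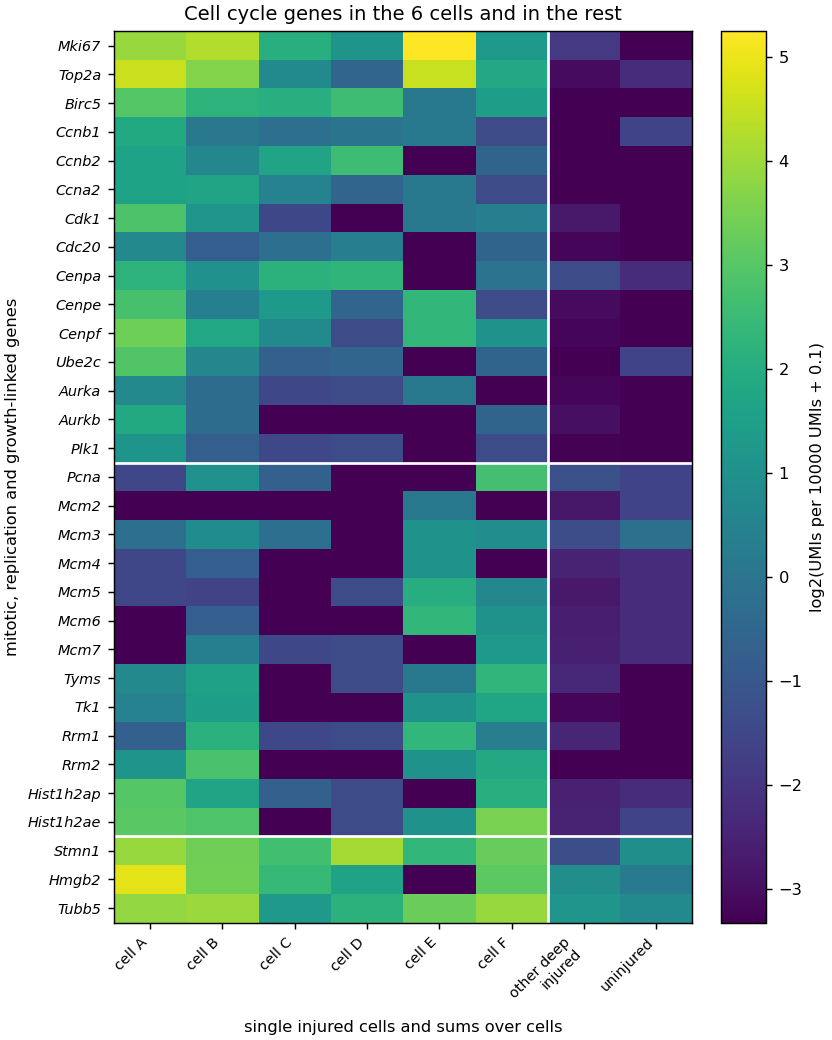
Rows are the mitotic, replication and growth-linked genes; columns are cells A to F, the sum of the 138 other deep injured cells and the sum of the 51 uninjured cells. Colour is log2 of UMIs per 10000 plus 0.1; the replication rows are dark in C and D, and both summed columns are dark for most mitotic genes.

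Cells with several replication genes were more common than cells with several mitotic genes, and this depended on depth. At least 4 of 13 replication genes were found in 30 of 727 injured cells (4.13%, 2.80 to 5.84%) and in 26 of 144 deep ones (18.1%, 12.1 to 25.3%). No uninjured cell of 51 had 4, and 1 had 3. After the deep cells were thinned to 5000 UMIs, 4 of 144 injured cells kept 4 or more (2.78%, 0.762 to 6.96%), and all 4 were among the 6. At that depth the order was reversed, as 6 of 144 kept 4 or more mitotic genes. After thinning to 10000 UMIs, 9 of 121 injured cells kept 4 or more replication genes (7.44%, 3.46 to 13.7%), and only 5 of these were among the 6. Outside the 6 cells the largest number was in a cell of 4614 UMIs that had 8 replication genes (Pcna, Mcm2, Mcm3, Mcm4, Mcm5, Mcm6, Tyms and Rrm1, 14 UMIs in all) and 0 mitotic genes. A cell of 2773 UMIs had Mcm3, Mcm5, Mcm7, Tyms and Rrm2 with 1 mitotic gene. Just under the limit for mitotic genes were 6 injured cells with 3 each, among them a cell of only 806 UMIs with Ccnb1, Cdk1 and Ube2c.

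Growth-linked genes were higher in the 6 cells but present widely. Stmn1, the microtubule-destabilizing protein stathmin, had 59, 43, 24, 57, 5 and 33 UMIs in A to F, 35.9 times the level of the other deep injured cells (27.9 to 46.6). Hmgb2, a chromatin protein abundant in proliferating cells, had 115, 44, 20, 10, 0 and 29 UMIs, a ratio of 6.19 (5.25 to 7.27). Tubb5, a β-tubulin, had 56, 64, 9, 15, 10 and 52 UMIs, a ratio of 4.89 (4.15 to 5.74). Cell E, the shallowest of the 6, had no Hmgb2 UMI.

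Genes that act before S phase or hold the cycle were mixed. Cdkn1a, the inhibitor p21, had 3, 14, 21, 4, 3 and 12 UMIs in A to F, 289 CPM against 286 CPM in the other deep injured cells, a ratio of 1.01 (0.758 to 1.32). Ccnd1 (cyclin D1) had 1, 1, 6, 3, 0 and 0 UMIs, a ratio of 2.40 (1.141 to 4.59), and Ccnd2 (cyclin D2) 1 UMI each in A and D and 0 in the others. Ccne1 (cyclin E1), which drives entry into S phase, had 62.5% of its 8 injured UMIs in the 6 cells, 2 in B and 3 in F, against 1 UMI in the other deep injured cells, a ratio of 69.8 (7.81 to 3303).

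Cell cycle genes outside the 35 were read from 4 further lists, which were not used to choose the cells. Of all 9906 genes compared with the other 138 deep injured cells, 25.6% were higher and 13.3% lower by 1.5-fold after 10 CPM was added to both levels; a gene seen in 1 of the 6 cells entered this comparison. The median log2 ratio over all genes was 0.22. Of mitosis genes outside the set, 74 of 77 were higher and 0 lower, with a median log2 ratio of 3.02 and a summed level of 9786 against 492 CPM. Of S phase genes 31 of 39 were higher and 0 lower (median 1.41), and of chromatin genes 23 of 26 (median 2.31). For comparison, 12 of the 13 replication members were higher, with Mcm2 between the limits. Of G1 cyclins, kinases, inhibitors and pocket proteins 11 of 31 were higher (35.5%) and 7 lower (median 0.48). Both shares lay above the 25.6% and 13.3% over all genes.

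The mitosis list was led by Tubb4b (87 UMIs in the 6 cells), Smc2 and Tmpo (72 each), Prc1 (66) and Hmmr (59). Prc1, which bundles microtubules of the central spindle, and Hmmr, a spindle protein, were at 0 in all 138 other deep cells, and all 59 injured UMIs of Hmmr lay in 5 of the 6 cells. Smc2, a condensin subunit, had 31, 16, 8, 4, 4 and 9 UMIs in A to F and was 62.8 times as high as in the other deep cells (36.2 to 116).

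The S phase list repeated the split among the cells. Atad2 had 7, 17, 0, 0, 3 and 10 UMIs in A to F, Lig1, the ligase that joins lagging-strand fragments, 1, 9, 0, 0, 5 and 15, and Clspn, a replication checkpoint adaptor, 4, 6, 0, 0, 3 and 6. Summed over the 41 genes, A to F had 65, 107, 8, 6, 39 and 140 UMIs. C and D were again the lowest. Slbp, which binds histone mRNA, and Fen1, a flap nuclease, had 21 and 18 UMIs in the 6 cells.

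Of the chromatin genes, Ptma (648 UMIs in the 6 cells), H2afz (450) and Tuba1b (232) were abundant everywhere, with 2.05, 4.85 and 6.64 times the level of the other deep cells. Hist1h1b, a replication-dependent linker histone, had 59, 104, 0, 0, 4 and 57 UMIs in A to F, 0 in the other deep cells and 6 in shallower injured cells. In the G1 list, Gadd45b, a stress-induced gene, had 0, 53, 45, 9, 1 and 54 UMIs (821 against 333 CPM), Cdkn2d (the inhibitor p19INK4d) 14, 8, 3, 0, 1 and 5, Ccne2 (cyclin E2) 0, 1, 0, 0, 3 and 5, Cdkn2c (the inhibitor p18INK4c) 14, 5, 1, 0, 1 and 1, and the antiproliferative genes Btg1 and Btg2 lay at 0.862 and 0.928 times the other deep cells.

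The 6 cells carried the markers of macrophages and microglia. All 10 markers shared by both types were seen in each, and their summed level was 37634 CPM, against 40396 CPM in the other deep injured cells. Cell E was the lowest, at 6185 CPM, and also had 17.2% mitochondrial UMIs, against 1.62 to 3.36% in the other 5 and at most 9.67% in the other deep cells. C1qa, a complement subunit made by both types, had 267, 225, 427, 357, 10 and 360 UMIs in A to F. Microglial markers summed to 8088 CPM, against 5854 CPM, and included Cx3cr1 (172 UMIs) and Olfml3 (73). Cell A differed from the rest: it had 1331 of the 1803 UMIs of Lyz2, a lysozyme of monocytes and macrophages, in the 6 cells, and 47 of the 55 of Ms4a7.

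Markers of some other cell types were at or near 0 in the 6 cells and those of others were not. The 8 T or NK cell, 5 erythroid and 7 pericyte or fibroblast markers had 0 UMIs. Of 7 monocyte markers 5 had 0, Ccr2 and Ly6c2 among them, but 6 of the 7 had 0 in the 22 other injured cells of at least 30000 UMIs. Monocyte markers summed to 9163 CPM, against 16317 CPM in the other deep injured cells and 21935 CPM in those 22. Cell A, at 34024 CPM, lay within the range of those 22 (1207 to 94637 CPM). Dendritic cell and neutrophil markers had 2 UMIs each, and B cell markers 3. Oligodendrocyte markers had 99 UMIs, 63 of them in cell B; they summed to 502 CPM against 310 CPM in the other deep injured cells and 8617 CPM in the uninjured library. Oligodendrocyte precursor markers summed to 213 CPM against 72.9 CPM in the other deep injured cells, a ratio of 2.92 (2.04 to 4.09). Most of this was Cspg4, with 0, 15, 2, 1, 12 and 10 UMIs in A to F, while Pdgfra had 0. In cell E the 12 Cspg4 UMIs stood beside 10 of C1qa. Glial progenitor markers summed to 91.2 against 23.6 CPM, a ratio of 3.87 (2.16 to 6.60), from 18 UMIs of Nes alone, 11 of them in B; Sox2 and Egfr had 0. Astrocyte markers had 32 UMIs (162 against 146 CPM), and endothelial markers 21, all of Flt1 (106 against 67.5 CPM). Whether RNA of a second cell contributes to these deep cells was not tested, as no doublet caller was run.

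Among genes in none of the cell cycle lists, the 10 highest in the 6 cells included Cxcl10, an interferon-induced chemokine, with 0, 42, 48, 1, 0 and 71 UMIs in A to F. Its level was 821 CPM, against 64.6 CPM in the other deep injured cells and 7.67 CPM in the 22 other injured cells of at least 30000 UMIs. In the uninjured library it was 1291 CPM, from 113 UMIs in 7 of 51 cells. Tnfrsf11b, the decoy receptor osteoprotegerin, and Rrad, a small GTPase, owed their place to cell B, with 33 of 36 and 37 of 40 UMIs; without B, their log2 ratios were 0.41 and 0.04. Pttg1, Hist1h4d, Cep55, Hist1h3e, Diaph3 and Ncaph were also among the 10.

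The 10 lowest genes were led by the MHC class II group, which presents antigen. H2-Eb1 and H2-Aa had 0 UMIs in the 6 cells, against 2319 UMIs in 44 and 1847 UMIs in 43 of the other deep cells, at least 55.4-fold and 44.1-fold lower on a floor of 3 counts over the 6 cells. Cd74, the invariant chain, had 8 against 7745 UMIs, and H2-Ab1 5 against 2269. At matched depth no gap could be seen for H2-Eb1 and H2-Aa. The 22 other injured cells of at least 30000 UMIs had 3 UMIs of H2-Eb1 and 2 of H2-Aa, 3.83 and 2.56 CPM. Both values lie below the 15.2 CPM that 0 UMIs allows in the 6 cells. H2-Ab1 was at 33.2 CPM in those 22 cells, against 25.3 CPM in the 6 cells, and Cd74 at 75.4 against 40.5 CPM.

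For Fabp5, a fatty acid-binding protein of lipid-handling phagocytes, the difference was as large at matched depth. It had 3, 5, 6, 2, 0 and 6 UMIs in A to F, 111 CPM, against 1590 CPM in the other deep cells and 2348 CPM in those of at least 30000 UMIs. At that depth the other cells ranged from 0 to 340 UMIs with a median of 53.5, and the groups overlapped. Gpnmb and Lgals3, both of the foam or disease-associated phagocyte list, were at 309 and 299 CPM, against 2351 and 1881 CPM in cells of at least 30000 UMIs, but single cells weigh on these sums. Gpnmb had a median of 4.41 UMIs per 10000 in the 6 cells, 9.88 in the others of at least 30000 UMIs, where 1 cell held 495 of 1840 UMIs, and 5.502 in the 116 of lower depth. Of the 59 Lgals3 UMIs in the 6 cells 37 were in D, and the medians were 1.78, 12.9 and 4.46 per 10000. Lpl (lipoprotein lipase), of the same list, was at 1282 against 1284 CPM. The other low genes were Mmp12, Fbxo32, Postn and Ahnak, with 0 UMIs in the 6 cells, and Pltp with 3.

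**Figure D5:**
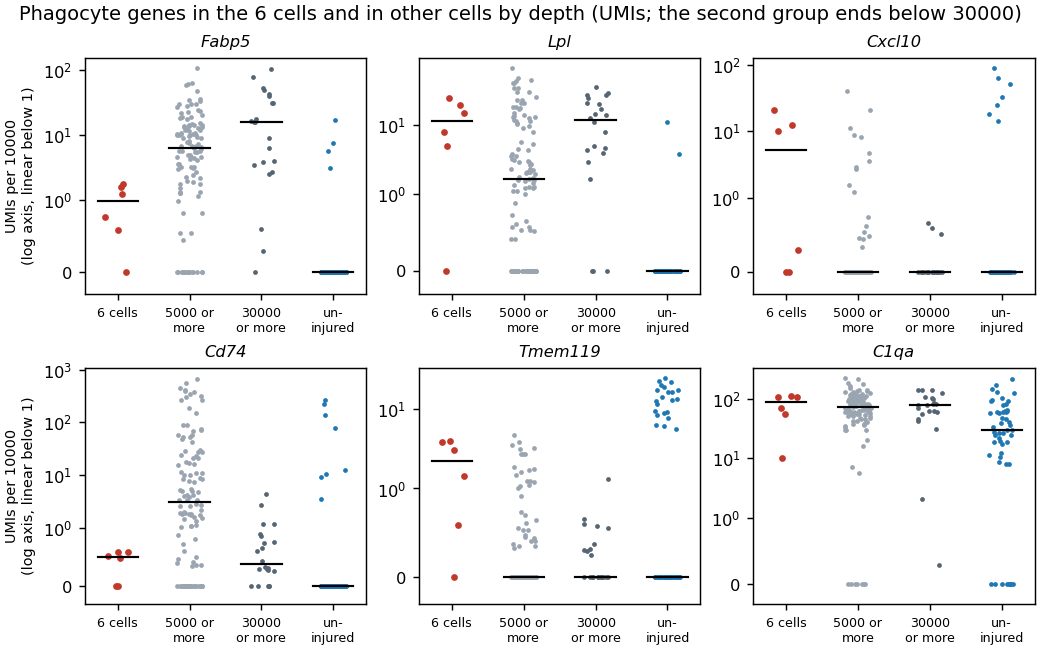
UMIs per 10000 in each cell (log axis, linear below 1) for 6 genes, in the 6 cells rich in mitotic genes, the 116 other injured cells of 5000 UMIs or more but under 30000, the 22 of at least 30000 UMIs and the 51 uninjured cells; bars are medians. Fabp5 is below 2 in all 6 cells, Cd74 is low in both the 6 cells and the deepest others, and C1qa is present in all 6.

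Between the libraries, mitotic genes summed to 312 CPM (1153 UMIs) after crush and to 68.6 CPM (6 UMIs) without it, a ratio of 4.55 (2.08 to 12.4). Without the 6 cells the injured level was 64.3 CPM and the ratio 0.937 (0.424 to 2.58). These genes chose the 6 cells, so a fall of the ratio without them is set by that choice. Without the erythroid cell the mitotic ratio was 4.76. The 6 uninjured UMIs were 2 each of Ccnb1 and Ube2c and 1 each of Top2a and Cenpa, in 5 cells. Replication genes summed to 242 against 206 CPM, a ratio of 1.18 (0.741 to 2.00), and without the 6 cells to 138 CPM, a ratio of 0.671 (0.420 to 1.141). Neither replication ratio excluded equal levels. The replication ratio was 2.35 among deep cells (4 uninjured UMIs) and 0.603 among cells under 5000 UMIs, and both intervals included 1. Without the erythroid cell it was 1.03 in all cells and 1.63 among deep ones.

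Only 9 members were seen in 5% or more of the cells of either library and could be compared singly. Of these, 5 were higher in injured cells (Cenpa, Pcna, Hmgb2, Tubb5 and Cdkn1a) and 4 lower (Mcm3, Stmn1, Ccnd1 and Ccnd2), while of all 6690 genes compared 30.3% were higher and 25.3% lower. Cenpa (10.0% of injured and 1.96% of uninjured cells) and Pcna (12.1% and 3.92%) passed the limit only in the injured library. They had 1 and 2 uninjured UMIs. Ccnd2 (4.68% and 13.7%) passed it only in the uninjured library. The direction of these calls is thus partly set by the limit. Hmgb2 was at 218 against 103 CPM (ratio 2.12, 1.11 to 4.65) and Cdkn1a at 252 against 137 CPM (ratio 1.84, 1.05 to 3.57). Without the erythroid cell both intervals included 1: the Hmgb2 ratio was 1.85 (0.970 to 4.06), and 0.995 among deep cells, and the Cdkn1a ratio was 1.60 (0.914 to 3.12). In cells under 5000 UMIs the Cdkn1a ratio was 1.00, and after thinning to 500 UMIs 0.674. The intervals of Cenpa, Pcna, Tubb5, Mcm3 and Stmn1 included 1. For Stmn1 the ratio was 0.575 in all cells and 0.502 (0.305 to 0.888) without the erythroid cell. Deep cells, however, had 307 injured and 0 uninjured UMIs. On a floor of 3 counts the deep ratio was 1.25, and 0.861 without the erythroid cell. The injured deep level was 104 CPM, and the exact upper limit of the uninjured deep level was 103 CPM. Mki67, seen in 4.26% of injured cells and so below the 5% limit, had 264 injured and 0 uninjured UMIs. That is 2.08-fold higher on a floor of 3 counts over the uninjured library, and at least 1.68-fold by the exact interval. However, 206 of the 264 UMIs lay in the 6 cells, which Mki67 helped to choose. For every other member with 0 uninjured UMIs the ratio on that floor was below 1, the highest being 0.765 for Birc5.

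Ccnd1 and Ccnd2, 2 of the D-type cyclins, which start the cycle in response to growth signals, stood higher in the uninjured library. That library also had 8617 CPM of oligodendrocyte and 1074 CPM of astrocyte markers, whose part in these values was not tested. The other D-type cyclin, Ccnd3, had 57 injured and 2 uninjured UMIs, a ratio of 0.674 (0.178 to 5.70). Ccnd2 had 62 UMIs in 34 of 727 injured cells and 31 UMIs in 7 of 51 uninjured cells, 16.8 against 354 CPM, a ratio of 0.0473 (0.0303 to 0.0754). Of the 31 UMIs, 21 came from 1 cell of 9567 UMIs; without it the ratio was 0.131 (0.0665 to 0.286). Without the erythroid cell it was 0.0413. Ccnd1 had 113 UMIs in 64 injured and 13 UMIs in 7 uninjured cells, 30.6 against 149 CPM, a ratio of 0.206 (0.116 to 0.398).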

How the data were processed

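The authors deposited raw UMI counts, not normalized, as 1 table of genes by cells in which a header line gives the condition. Per the submitters' processing notes, tools included Cell Ranger 1.3, bcl2fastq 2.17.1.14 and Seurat 4.0.3 on mm10. Per the labels' design text, cells had 200 to 6500 genes. Members, lists and tests were chosen with earlier results of these data known; the limit of 4 mitotic genes was part of that choice.

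Counts were summed over cells and scaled to CPM. Intervals are exact Poisson, Clopper-Pearson or conditional binomial at 95%. Higher or lower means a ratio of 1.5 after adding 10 CPM, among genes detected in 5% or more of a library's cells (10% of either set, within the injured library). Named genes are members with at least 10 UMIs, up to 5 per other cell cycle list and 3 per marker list with most UMIs in the 6 cells, and the 10 highest and 10 lowest other genes; Ccne1 (8 injured and 1 uninjured UMIs), Ccne2, Cdkn2c, Ccnd3, further markers, Gpnmb, Lgals3 and Lpl were added after their values were seen. Of 24 lists, 8 are cell cycle and 16 marker lists. The rule of size was tested on simulated counts. Python 3.11.15, numpy 2.4.6, scipy 1.17.1, pandas 2.3.3 and matplotlib 3.10.9 were used. Doublets were not removed. Some genes that the rule names are left out of the text.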

Additional observations from a re-analysis of the deposited data

How the results depend on the processing

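With 1 library per condition, a ratio between libraries cannot be told apart from a difference between 2 preparations, and the 87499 uninjured UMIs set its precision. Values were recomputed under alternatives to pooling, depth, limits and filters; leaving out the 6 cells, the uninjured cell with most Ccnd2, single cells of the 6 or, among deep cells, the erythroid cell, taking the deep cells alone for the shares, and the comparison with cells of at least 30000 UMIs, were chosen after seeing the data. No paired analysis was possible because each group has 1 library and no test was made.

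The mitotic ratio of 4.55 was 1.29 in cells under 5000 UMIs, 1.84 without the 10 deepest injured cells, 1.26 with each cell weighted equally and 0.937 without the 6 cells. The replication ratio of 1.18 was 2.35 in deep cells, 0.603 in cells under 5000 UMIs, 0.671 without the 6 cells and 0.483 with equal weights. The Ccnd2 ratio of 0.0473 was 0.0175 in deep cells, 0.0121 in deep cells without the erythroid cell, 0.300 in cells under 5000 UMIs, 0.131 without the uninjured cell with most Ccnd2, 0.154 with equal weights and 0.121 after thinning to 500 UMIs; Ccnd2 was lower in injured cells under every alternative run. After thinning to 500 UMIs, the Cdkn1a ratio of 1.84 became 0.674 (5 uninjured UMIs), and the Hmgb2 ratio of 2.12 was 0.995 in deep cells without the erythroid cell; after that thinning no uninjured mitotic UMI was left, so no mitotic ratio is given. The causes were not tested.

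The share with at least 4 mitotic genes, 0.825% of injured cells, was 3.23% of cells of at least 3000 UMIs, 4.17% of deep cells, 4.17% of deep cells thinned to 5000 UMIs, 4.96% of cells of at least 10000 UMIs and 0% with all cells thinned to 500 UMIs. The share with at least 4 replication genes, 4.13%, was 7.29% at 3 or more genes, 2.61% at 5 or more, 15.6% of cells of at least 3000 UMIs, 18.1% of deep cells, 21.5% of cells of at least 10000 UMIs, 2.78% of deep cells thinned to 5000 UMIs and 0% at 500 UMIs. Thinning leaves fewer UMIs per cell, and the limits of 3 and 5 genes change the rule itself.

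Of other genes, 2367 were higher in the 6 cells, 1408 with a limit of 3 mitotic genes (11 cells) and 1492 with 20 CPM added. The number of higher cell cycle genes outside the members, 139 of 173, ranged from 124 to 147 over all alternatives run. In all, 435 values were recomputed under alternatives. For single genes 350 kept their direction and size by the limits used, 12 moved and 2 reversed. For other results 43 kept them, 27 moved and 1 reversed. The single genes include those picked as highest and lowest in these same data, far from the limits, so their tally was partly set by that choice. A limit of 5 mitotic genes selects the same 6 cells, so values for these cells could not change under it. The tally is therefore a description and does not measure how robust the results are.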
